A study of Mus musculus with 36 samples.

Results

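Substantia nigra and ventral tegmental area of wild-type (WT) mice were set against each other, using the 6 libraries whose labels give the region as SN or VTA and the genotype as WT, of 36 libraries in the series. WT SN had 3 libraries and so did WT VTA. The mice were C57 animals aged 6 to 7 weeks, and the labels name no treatment. The other libraries come from further brain regions and from mice with a knock-in (KI) at Maoa, the gene of monoamine oxidase A, and the WT mice compared here carry no knock-in. SN and VTA are not spelled out in the labels and were read as the 2 midbrain regions. Separate animals, or pools of animals, are not named in the labels as the source of the 3 libraries of a region, so a p-value rests on how much these libraries vary, and that variation may be technical. Each library held 17275268 to 18272358 estimated counts.

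The substantia nigra and the ventral tegmental area lie side by side in the ventral midbrain and hold most of the dopamine neurons of the brain. Nigral dopamine neurons send their axons mainly to the dorsal striatum and are the cells lost early in Parkinson disease, while those of the ventral tegmental area project mainly to the nucleus accumbens and the cortex. Dopamine neurons of both regions make the transmitter with Th (tyrosine hydroxylase) and Ddc, load it into vesicles with Slc18a2 and take it back up with Slc6a3, the dopamine transporter. In the adult mouse, nigral cells more often carry Sox6, Aldh1a1 and Ndnf, and cells of the ventral tegmental area more often carry Otx2, Calb1 and the glutamate transporter Slc17a6. Close by lie other nuclei: the peptide neurons of the Edinger-Westphal nucleus, the serotonin neurons of the raphe, and the midline ventricular wall with its ciliated ependymal cells.

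The dopamine markers were checked in each library before any test. Slc6a3 had 1107, 267 and 472 CPM (counts relative to the total of the library) in WT SN 1, 2 and 3, against 592, 238 and 0.579 CPM in WT VTA 1, 2 and 3. Th had 458, 121 and 169 CPM in WT SN, against 389, 190 and 10.9 CPM in WT VTA, in the same order of libraries. Both genes were therefore well above the level of a few counts in all 3 SN libraries and in VTA 1 and 2, but Slc6a3 was nearly absent from VTA 3, and Foxa1, Foxa2 and Pitx3, transcription factors of dopamine neurons, had 0 counts there. Drd1, the D1 dopamine receptor of striatal projection neurons, had 2.86, 3.87 and 2.79 CPM in WT SN, against 1.48, 3.33 and 136 CPM in WT VTA. Summed over the 20 striatal projection neuron markers, the 3 SN libraries had 662 to 765 CPM and the 3 VTA libraries 760, 724 and 6738 CPM. The library labelled WT VTA 3 thus carried striatal markers and few dopamine markers, and the main results below are given with it (6 libraries) and without it (3 SN and 2 VTA libraries).

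Among the SN libraries, WT SN 2 carried cortical markers. The 12 cortical excitatory neuron markers summed to 450, 1704 and 607 CPM in WT SN 1, 2 and 3, against 391 to 517 CPM in the WT VTA libraries. Slc17a7, the glutamate transporter of cortical excitatory neurons, had 133, 716 and 248 CPM in WT SN, against 273, 81.0 and 123.4 CPM in WT VTA. WT SN 3 had the most of Slc6a5, the glycine transporter of hindbrain and spinal neurons, with 147 CPM, while WT SN 1 and 2 had 36.3 and 62.2 CPM, and WT VTA had 13.8, 19.9 and 0.116 CPM. In bulk tissue, fewer cells of a type and less RNA per cell cannot be told apart, which holds for every marker gene described here.

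**Figure D1:**
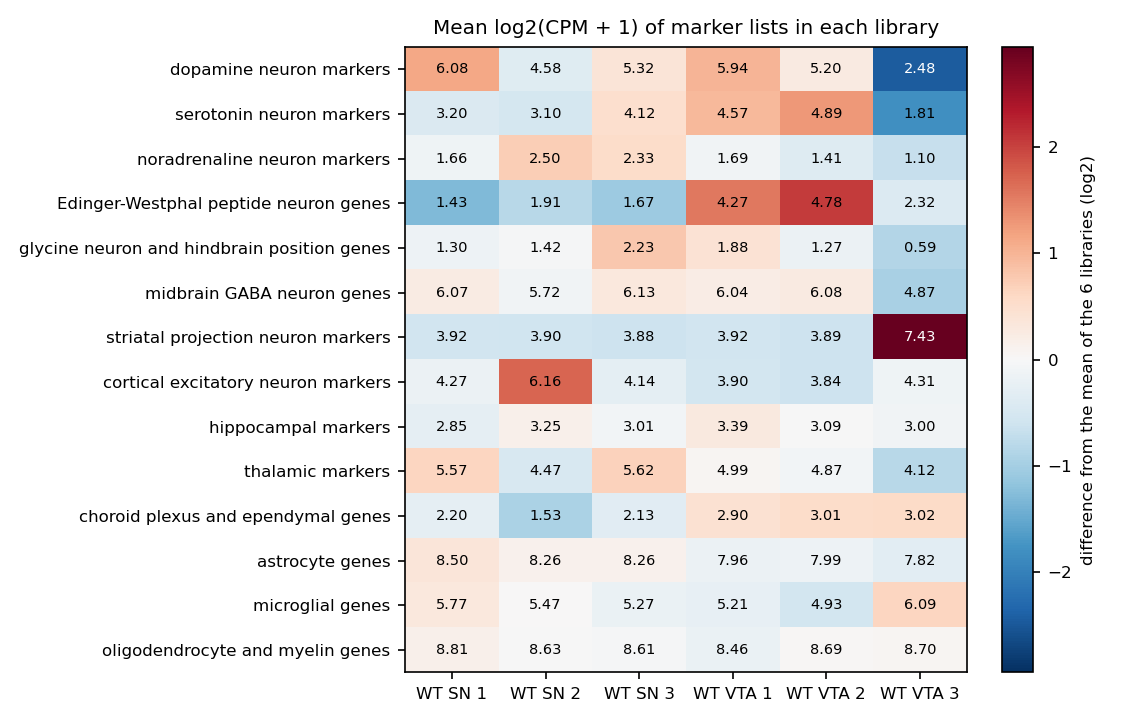
Mean log2(CPM + 1) of 14 marker lists (rows) in each library (columns, WT SN left of WT VTA); the number in a cell is the list mean and the colour is its difference from the mean of the 6 libraries. WT VTA 3 stands apart in striatal markers (7.43, against 3.88 to 3.92 in the other 5 libraries) and in dopamine markers (2.48), and WT SN 2 in cortical markers (6.16).

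With all 6 libraries, edgeR's quasi-likelihood test called 0 of 14450 genes (0%), with an adjusted p threshold of 0.05. Its smallest adjusted p was 0.9998, and 246 genes (1.7%) had an unadjusted p under 0.05. DESeq2 on the same counts called 11 of 17857 genes (0.0616%), 5 higher (0.028%) and 6 lower (0.0336%) in SN. Without WT VTA 3, edgeR called 2 of 14606 genes (0.0137%), Cartpt and Ucn, both lower in SN, and 749 genes (5.13%) had an unadjusted p under 0.05. DESeq2 then called 31 of 16412 genes (0.189%), 13 higher (0.0792%) and 18 lower (0.11%) in SN, and in all 31 the SN libraries did not overlap VTA 1 and 2. Such separation was found in 23.9% of all genes tested without WT VTA 3, and in 4.91% with it (2.04% higher and 2.87% lower in SN). Of the 31, 8 were also among the 11, all in the same direction. The common biological coefficient of variation, a measure of the spread between libraries of a group, was 0.281 with 6 libraries and 0.183 without WT VTA 3. The authors' deposited table, also made with DESeq2 on these 6 libraries, calls 11 genes at a q-value under 0.05. All 11 were called by DESeq2 here, which is a repeat of the same method on the same libraries and no independent check. When 1 library at a time was left out of the 6, DESeq2 kept 2 of its 11 calls in all 6 fits, Cartpt and Ccdc153. When each SN library in turn was left out with WT VTA 3, it kept 10 of its 31 calls in all 3 fits: C1ql2, Cartpt, Gabrd, Gfap, Myoc, Postn, Pou4f1, Slc6a2, Tcf24 and Ucn. A DESeq2 call below that edgeR did not make is named as a DESeq2 call. Unless DESeq2 is named as their source, log2 fold changes and their standard errors (SE) below are those of edgeR. This holds also where a DESeq2 adjusted p stands beside them, so that SE is not the one behind the DESeq2 call. All adjusted p-values of edgeR were above 0.99 with 6 libraries, and those of the genes called by DESeq2 alone ran from 0.234 to 0.845 without WT VTA 3.

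Genes of the Edinger-Westphal peptide neurons were lower in SN. These neurons sit on the midline of the midbrain, above the ventral tegmental area, and release CART and urocortin. Cartpt, the gene of the CART peptides on chromosome 13 (99898483 to 99910179, GRCm38.p6), had 11.0, 16.2 and 12.6 CPM in WT SN 1, 2 and 3, against 293, 512 and 53.5 CPM in WT VTA 1, 2 and 3. Every SN library was below every VTA library. Its log2 fold change, SN over VTA throughout, was -4.43 ± 0.77 (SE) with 6 libraries and -4.91 ± 0.29 without WT VTA 3. The edgeR adjusted p without WT VTA 3 was 0.0068, and the DESeq2 adjusted p was 9.4e-10 with 6 libraries and 4.41e-62 without WT VTA 3. Cartpt is not confined to the midbrain: WT libraries labelled Nac, numbers 1 and 3, had 29.9 and 59.9 CPM, and the striatal-marker library WT VTA 3 lies within that range. WT Nac 2 had 244 CPM of Cartpt, and it also had 192 CPM of Slc6a3 and only 2.88 CPM of Drd1.

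Ucn encodes urocortin, a stress peptide of the CRH family, and lies on chromosome 5 (31137989 to 31138895). It had 0.114, 0.462 and 0.0547 CPM in WT SN (2, 8 and 1 counts), against 18.1, 36.5 and 0.0579 CPM in WT VTA (317, 647 and 1 counts). WT VTA 1 and 2 were far above all SN libraries, while WT VTA 3 was at the SN level. The 6-library edgeR fit removed Ucn as too low in count. Without WT VTA 3 its log2 fold change was -6.98 ± 0.57, with an edgeR adjusted p of 0.0301. DESeq2 gave -7.01 ± 1.02, with a DESeq2 adjusted p of 2.74e-08. With 6 libraries the DESeq2 adjusted p was 0.323. In the deposited FPKM values, which are per transcript length, Cartpt in WT VTA 1 and 2 (492 and 862 FPKM) was above Th (254 and 124 FPKM) and above Slc6a3 (184 and 74.1 FPKM) in the same libraries.

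Both edgeR calls depend on the SN libraries. Leaving out WT SN 1 as well as WT VTA 3 gave edgeR adjusted p-values of 0.138 for Cartpt and 0.453 for Ucn, and leaving out WT SN 3 gave 0.237 and 0.341. The log2 fold changes were -4.80 and -6.71 without WT SN 1, and -4.85 and -6.50 without WT SN 3. DESeq2 kept both calls when each SN library in turn was left out with WT VTA 3.

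The remaining members of the Edinger-Westphal list were Postn and Nmb. Postn, a secreted matrix protein that marks these neurons, had 1.20, 2.19 and 2.57 CPM in WT SN, against 8.97, 7.57 and 2.37 CPM in WT VTA. It was a DESeq2 call without WT VTA 3 (log2 fold change -2.04 ± 0.31, DESeq2 adjusted p = 0.000186), not with 6 libraries (DESeq2 adjusted p = 0.705). Postn is not confined to these neurons: WT Nac 1 had 15.7 CPM and the WT libraries labelled STR 3.23 to 9.52 CPM. WT Nac 3 had 2.08 CPM, and the WT libraries labelled HP and PFc 0.452 to 1.99 CPM. Nmb, the neuromedin B gene, was not called, at 0.80, 1.5 and 0.985 CPM in WT SN, against 1.48, 2.48 and 2.20 CPM in WT VTA. All 4 members had a lower mean in SN without WT VTA 3, with a median log2 fold change of -3.48, beside 0.009 over all genes tested. With 6 libraries the 3 tested members had a median of -1.66, beside -0.011 over all genes tested.

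The promoters of Cartpt and Ucn are shown because these genes were the only edgeR calls, with that of Th, an uncalled dopamine gene, for comparison. Each sequence is the 250 bases before the annotated start, from RefSeq for GRCm38.p6, read 5′ to 3′ on the gene's own strand, which is the minus strand for all 3. The start of Cartpt in the RefSeq promoter table lies inside the span of its gene record, while those of Ucn and Th lie at the end of theirs. They lie at chr13:99900684-99900933 (Cartpt), chr5:31138896-31139145 (Ucn) and chr7:142899996-142900245 (Th). Capitals mark TGACGTCA, the full cAMP response element, a sequence bound by CREB-family factors.
Cartpt: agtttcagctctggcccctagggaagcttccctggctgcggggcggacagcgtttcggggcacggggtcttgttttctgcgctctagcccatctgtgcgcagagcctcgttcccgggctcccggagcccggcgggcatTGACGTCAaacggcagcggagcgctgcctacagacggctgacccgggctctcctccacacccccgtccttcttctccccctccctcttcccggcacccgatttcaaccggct
Ucn: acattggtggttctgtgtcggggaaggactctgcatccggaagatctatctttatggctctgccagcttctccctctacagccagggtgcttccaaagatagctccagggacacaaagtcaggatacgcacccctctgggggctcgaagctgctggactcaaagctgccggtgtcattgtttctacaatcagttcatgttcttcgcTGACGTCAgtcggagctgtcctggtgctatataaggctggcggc
Th: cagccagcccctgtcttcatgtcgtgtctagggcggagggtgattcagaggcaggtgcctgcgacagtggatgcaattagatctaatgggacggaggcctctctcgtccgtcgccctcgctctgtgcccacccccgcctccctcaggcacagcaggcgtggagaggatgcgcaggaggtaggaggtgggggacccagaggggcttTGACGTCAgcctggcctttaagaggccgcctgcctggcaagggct
The motif, which reads the same on both strands, starts 112, 44 and 45 bases before the start of Cartpt, Ucn and Th. It occurs in 508 of 32851 RefSeq promoters of this length (1.55%). Of the genes called lower in SN by DESeq2 without WT VTA 3, 16 had a promoter in the table, and Cartpt and Ucn were the 2 with the motif. Of those called higher, 7 had a promoter, and 0 held it. A match is a description of these letters and says nothing of binding in these samples.

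**Figure D2:**
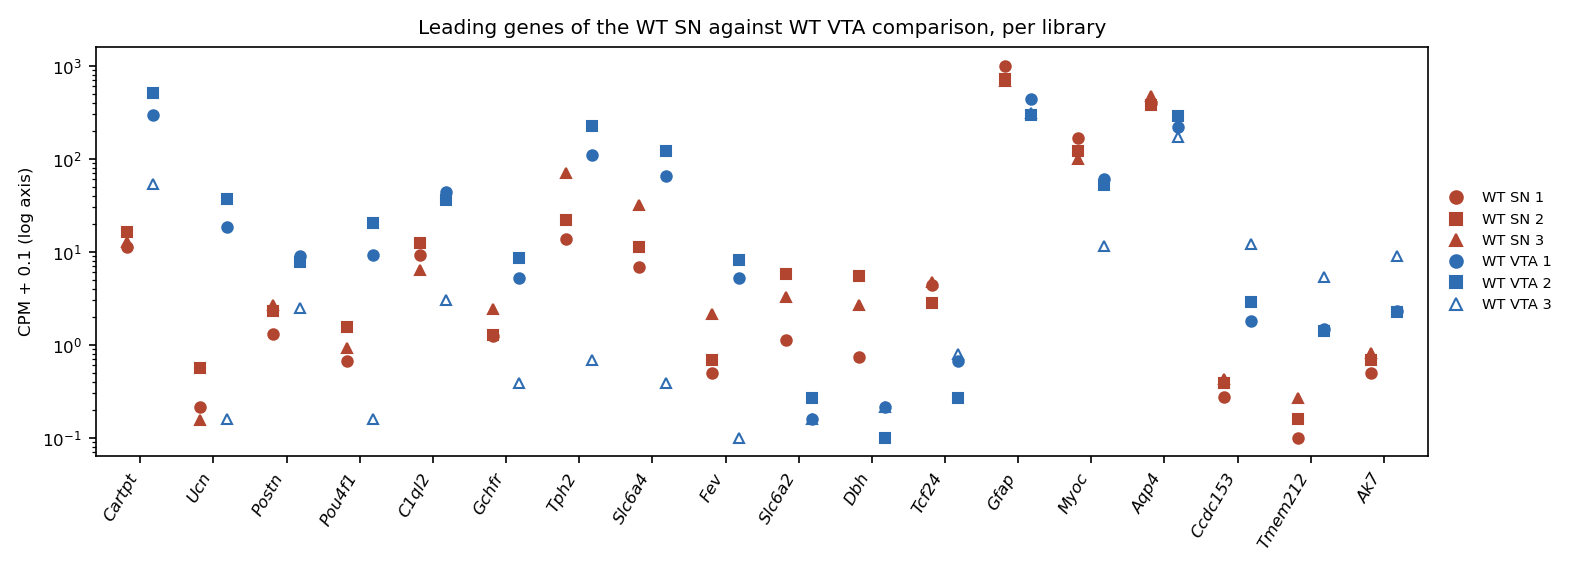
CPM plus 0.1 on a log axis for 18 genes (x axis), with WT SN libraries in red left of WT VTA libraries in blue and WT VTA 3 drawn open. Cartpt was lower in all 3 SN libraries (11.0 to 16.2 CPM) than in all 3 VTA libraries (53.5 to 512 CPM), whereas Ucn, Pou4f1, C1ql2 and Tph2 in WT VTA 3 lay within or below the range of the SN libraries.

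Pou4f1, Pou4f2, C1ql2 and Dmbx1 were further DESeq2 calls, lower in SN, once WT VTA 3 was left out. Pou4f1 (Brn3a), a transcription factor of the habenula, red nucleus and tectum, had 0.571, 1.44 and 0.821 CPM in WT SN, against 9.08, 20.2 and 0.0579 CPM in WT VTA. Without WT VTA 3 its log2 fold change was -3.94 ± 0.46 (DESeq2 adjusted p = 8.94e-12), and with 6 libraries -3.36 ± 1.32 (DESeq2 adjusted p = 0.99999). Pou4f2, its paralog, was called the same way, with 0.457, 1.39 and 1.37 CPM in WT SN, against 2.74, 11.9 and 0 CPM in WT VTA. Both genes were higher in VTA 1 and 2 than in any SN library. C1ql2, a secreted synaptic organiser of the hippocampal list with 63.7 to 81.3 CPM in WT libraries labelled HP, had 9.14, 12.2 and 6.29 CPM in WT SN, against 44.0, 36.1 and 2.95 CPM in WT VTA, and a log2 fold change without WT VTA 3 of -2.10 ± 0.27 (DESeq2 adjusted p = 1.84e-08).

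Dmbx1, a homeobox gene of the developing midbrain, was a DESeq2 call whose highest value by far was in WT VTA 2: it had 0.40, 0.0577 and 0.219 CPM in WT SN, against 0.571, 9.32 and 0 CPM in WT VTA. The same library led for Otx2, the homeobox factor of ventral tegmental dopamine neurons and choroid plexus, with 5.66, 2.60 and 4.21 CPM in WT SN, against 7.25, 30.4 and 2.08 CPM in WT VTA. The 12 tectal and dorsal midbrain transcription factor genes had a median log2 fold change of -0.85 without WT VTA 3, and 10 had a lower mean in SN, with Pou4f2 the only DESeq2 call. In 8 of the 12 all SN libraries lay below VTA 1 and 2, where 14.5% of all genes tested did so. Pax7, of the superior colliculus, had 0.971, 4.96 and 6.51 CPM in WT SN, against 10.2, 22.1 and 0 CPM in WT VTA, and was not called. Of the 9 tested genes of the interpeduncular and habenular list, 8 had a lower mean in SN without WT VTA 3 (median -0.65), and Pou4f1 was its only DESeq2 call.

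Further genes called lower in SN by DESeq2 without WT VTA 3 had varied roles. Penk, the enkephalin precursor, had 55.8, 66.7 and 66.9 CPM in WT SN, against 100, 128 and 1375 CPM in WT VTA, and was called only without WT VTA 3 (log2 fold change -0.84 ± 0.16, DESeq2 adjusted p = 0.0106). Hpcal1, a neuronal calcium sensor, differed least among these, at 82.7, 73.2 and 86.1 CPM in WT SN, against 120, 134 and 81.7 CPM in WT VTA (-0.64 ± 0.13 without WT VTA 3). Fibcd1, a chitin-binding membrane protein of the hippocampal list, had 10.9, 13.4 and 15.2 CPM in WT SN, against 24.2, 47.2 and 15.5 CPM in WT VTA. Gabrr1, Epyc and Serpina3g were also called in this direction, as were Gchfr and Fev, described next, and Ccdc153, described with the ependymal genes.

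Of the 9 serotonin neuron markers, 1 was called lower in SN by DESeq2, without WT VTA 3, and 6 lay lower in all SN libraries than in VTA 1 and 2, where 14.5% of all genes tested did. Fev (Pet1), the transcription factor of serotonin neurons, had 0.40, 0.577 and 2.02 CPM in WT SN, against 5.08, 8.02 and 0 CPM in WT VTA. Its log2 fold change without WT VTA 3 was -2.69 ± 0.58 (DESeq2 adjusted p = 0.0136). Gchfr, which adjusts the synthesis of the tetrahydrobiopterin cofactor of monoamine synthesis, had 1.14, 1.15 and 2.30 CPM in WT SN, against 5.14, 8.53 and 0.289 CPM in WT VTA, and was called likewise (-2.14 ± 0.38, DESeq2 adjusted p = 0.00429). For both genes WT SN 3 was the highest of the SN libraries.

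Tph2, the rate-limiting enzyme of brain serotonin synthesis, had 13.5, 21.8 and 70.0 CPM in WT SN, against 109, 224 and 0.579 CPM in WT VTA. Slc6a4, the serotonin transporter, had 6.80, 11.1 and 31.2 CPM in WT SN, against 64.1, 121 and 0.289 CPM in WT VTA. Neither was called, with log2 fold changes of -2.25 ± 0.63 and -2.50 ± 0.57 without WT VTA 3. All 9 serotonin markers had a lower mean in SN without WT VTA 3 (median -0.74), beside 48.4% of all genes tested. With 6 libraries 7 had a lower mean (median -0.58) and none was called. Their summed level was 117, 110 and 224 CPM in WT SN, against 317, 507 and 75.8 CPM in WT VTA, so that VTA 3 was the lowest of the 6 libraries.

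Slc6a2 and Dbh, of the noradrenaline neuron list, ran the other way, at low counts. Slc6a2, the noradrenaline transporter on chromosome 8 (92960470 to 93001667), had 1.03, 5.66 and 3.12 CPM in WT SN (18, 98 and 57 counts), against 0.0571, 0.169 and 0.0579 CPM in WT VTA (1, 3 and 1 counts). Dbh, the enzyme that turns dopamine into noradrenaline, on chromosome 2 (27165507 to 27183204), had 0.629, 5.31 and 2.57 CPM in WT SN (11, 92 and 47 counts), against 0.114, 0 and 0.116 CPM in WT VTA (2, 0 and 2 counts). The SN libraries lay above the VTA libraries for both genes, and SN 2 was the highest. Slc6a2 had a log2 fold change of 4.99 ± 0.82 with 6 libraries (DESeq2 adjusted p = 0.000252) and 4.77 ± 0.96 without WT VTA 3 (0.00292). Dbh had 5.08 ± 1.04 (0.00376) and 5.49 ± 1.29 (0.0136). A count of 3, the limit that a count of 0 allows, corresponds to 0.164 to 0.174 CPM in these libraries, so the VTA values lie at or below it.

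The other noradrenaline markers were not called: of the 4 tested, 3 had a higher mean in SN with 6 libraries and 2 without WT VTA 3. The 6 members summed to 93.0 to 100.4 CPM in WT SN, against 81.9 to 104.9 CPM in WT VTA. Most of this sum was Cyb561, at 91.6, 86.0 and 78.8 CPM in WT SN, against 97.7, 84.6 and 81.7 CPM in WT VTA. Cyb561 also had 56.9 to 128 CPM in WT libraries labelled HP, PFc and STR, so the sum is not particular to noradrenaline neurons. Phox2a, a transcription factor that specifies these neurons, had at most 0.52 CPM in WT SN, in SN 2, against at most 0.0565 CPM in WT VTA. Dbh lost its DESeq2 call when WT SN 2 was left out, from either set of libraries, and with 6 libraries also without WT SN 3 or WT VTA 1. Slc6a2 lost it without WT SN 2 in the 6-library set, and kept it in the set without WT VTA 3. Slc6a5, the glycine transporter, was also higher in every SN library than in every VTA library, with log2 fold changes of 2.85 ± 1.15 with 6 libraries and 2.28 ± 0.56 without WT VTA 3, and was not called. The 17 glycine neuron and hindbrain genes tested without WT VTA 3 had a median of -0.02, with 8 higher and 9 lower means. Whether noradrenaline and hindbrain genes in SN share a source was not tested.

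No dopamine neuron marker was called between the regions. Of 21 markers, 0 were called in either set of libraries. Over all genes, edgeR called 0% with 6 libraries and 0.0137% without WT VTA 3, and DESeq2 0.0616% and 0.189%. With 6 libraries 0 of the 21 had groups without overlap, where 4.91% of all genes tested did. For a list of this size, 0 is close to these shares, and WT VTA 3 had few dopamine markers, so these counts do not set the list apart. With WT VTA 3 the list's median log2 fold change was 0.35, with 15 higher and 6 lower means in SN, where 47.2% and 52.8% of all genes tested were higher and lower. Without it the median was -0.13, with 6 higher and 15 lower means, beside 51.6% and 48.4%. The direction of the list thus turned with 1 library. Ddc and Slc18a2 show the pattern. Ddc had 439, 130 and 244 CPM in WT SN, against 373, 234 and 37.5 CPM in WT VTA. Slc18a2 had 297, 95.1 and 214 CPM in WT SN, against 263, 181 and 8.63 CPM in WT VTA. In both regions replicate 1 was the highest library, and SN 2, the library with cortical markers, was the lowest of the SN libraries.

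Slc6a3 had the highest log2 fold change of the transmitter genes, 0.60 ± 0.61 without WT VTA 3, beside -0.19 ± 0.57 for Th, -0.14 ± 0.46 for Ddc and -0.11 ± 0.42 for Slc18a2. Each of these is within about 1 SE of no difference, and the spread within SN (267 to 1107 CPM for Slc6a3) was wider than the difference of the means. Ret, the GDNF co-receptor that dopamine neurons carry, had 335, 101 and 207 CPM in WT SN, against 302, 142 and 7.35 CPM in WT VTA (-0.03 ± 0.49 without WT VTA 3). En2, a homeobox factor of midbrain and hindbrain, Foxa2, and Gch1, the first enzyme of cofactor synthesis, were the 3 of 21 markers with all SN libraries below VTA 1 and 2, a share close to the 14.5% of all genes tested. En2 had 8.80, 6.64 and 7.66 CPM in WT SN, against 15 and 12.4 CPM in WT VTA 1 and 2 (-0.82 ± 0.19), and Gch1 had 23.5, 9.12 and 15.9 CPM, against 30.9 and 29.0 CPM (-0.87 ± 0.34). Kcnj6, the GIRK2 potassium channel, pointed to SN in both sets, at 0.80 ± 0.40 and 0.44 ± 0.20, without a call.

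**Figure D3:**
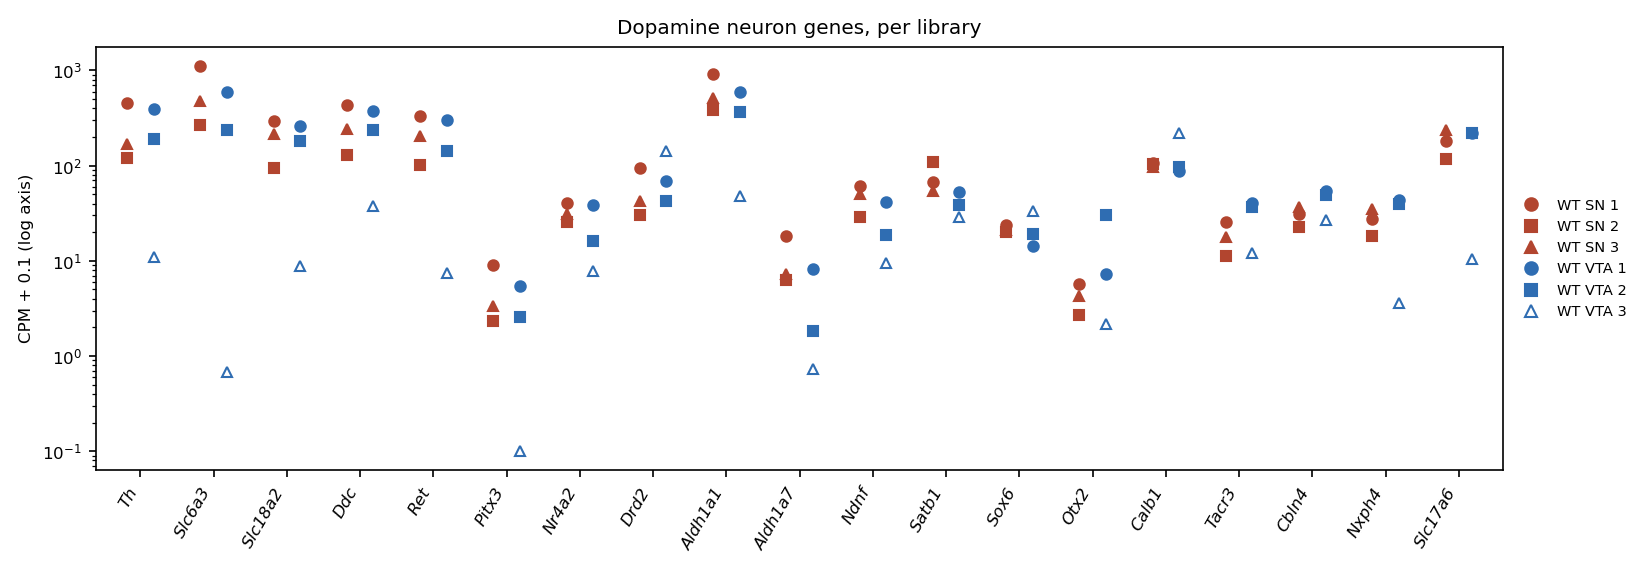
CPM plus 0.1 on a log axis for 19 dopamine neuron genes (x axis), with WT SN libraries in red left of WT VTA libraries in blue and WT VTA 3 drawn open. The first 8 are markers of dopamine neurons in general, Aldh1a1 to Sox6 are genes of nigral dopamine neurons, and Otx2 to Slc17a6 are genes of ventral tegmental dopamine neurons. Libraries of SN and VTA 1 and 2 overlap for Th, Slc6a3, Ddc and Ret, while WT VTA 3 lies far below for most.

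Genes of nigral dopamine neurons leaned to SN. Of 12 genes, 10 had a higher mean in SN without WT VTA 3 (median 0.36) and 9 with it (median 0.56), beside 51.6% and 47.2% of all genes tested. None was called. Aldh1a1, the aldehyde dehydrogenase of ventral-tier nigral neurons, had 914, 388 and 509 CPM in WT SN, against 595, 362 and 48.4 CPM in WT VTA (0.36 ± 0.38 without WT VTA 3). The SN and VTA values overlapped. Aldh1a7, its close paralog, had 18.3, 6.23 and 7.17 CPM in WT SN, against 8.17, 1.75 and 0.637 CPM in WT VTA (1.12 ± 0.69), and how reads shared by the 2 paralogs were divided is not given in the sources used here. Satb1, a chromatin organiser reported to protect nigral neurons in mice, had 67.2, 108 and 53.6 CPM in WT SN, against 52.3, 38.8 and 28.7 CPM in WT VTA, the only gene of the list without overlap in 6 libraries (0.94 ± 0.32, and 0.76 ± 0.31 without WT VTA 3). Its highest value was in SN 2, and Satb1 is also expressed in cortex.

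Ndnf, a secreted factor of ventral-tier neurons, had 61.4, 28.5 and 50.2 CPM in WT SN, against 41.0, 18.8 and 9.49 CPM in WT VTA (0.66 ± 0.40 without WT VTA 3). Sox6, the transcription factor that marks nigral dopamine neurons, had 23.7, 20.1 and 20.9 CPM in WT SN, against 14.3, 18.9 and 33.2 CPM in WT VTA, so that its direction turned with that library (-0.05 ± 0.32 with 6 libraries, 0.39 ± 0.18 without WT VTA 3). Sox6 is carried by cells outside the dopamine lineage as well. Without WT VTA 3, 4 of the 12 genes lay higher in all SN libraries than in VTA 1 and 2 (Satb1, Sox6, Grin2c and Zdhhc2) and 1 lay lower, where 9.45% and 14.5% of all genes tested did. The lower one was Igf1, with 12.7, 8.83 and 12.4 CPM in WT SN, against 16.1 and 15.1 CPM. Grin2c had 37.1 to 41.1 CPM in WT SN and 53.8 to 71.7 CPM in WT libraries labelled STR. Zdhhc2 had 60.2 to 68.5 CPM in WT SN and 61.1 to 76.5 CPM in WT libraries labelled HP and PFc. Neither gene was thus particular to SN.

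Genes of ventral tegmental dopamine neurons gave 1 DESeq2 call, Otx2, without WT VTA 3 (-2.17 ± 0.57, DESeq2 adjusted p = 0.0449). The call was lost when WT SN 2 or WT SN 3 was left out. Of the 14 genes, 9 had a lower mean in SN without WT VTA 3 (median -0.12) and 7 with it (median 0.08). In 5 all SN libraries lay below VTA 1 and 2, and in 1, Calb1, above them, where 14.5% and 9.45% of all genes tested did. Among these Tacr3, the neurokinin 3 receptor, had 25.6, 11.1 and 17.8 CPM in WT SN, against 40.8, 36.5 and 11.9 CPM in WT VTA (-1.07 ± 0.31 without WT VTA 3). Cbln4, a synaptic organiser, had 31.1, 22.6 and 37.1 CPM in WT SN, against 54.0, 48.6 and 26.8 CPM in WT VTA (-0.75 ± 0.20). Neither passed DESeq2, where both had an adjusted p of 0.284. Calb1, the calcium buffer of dorsal-tier and ventral tegmental neurons, pointed the other way by a narrow margin, with 107, 105 and 97.5 CPM in WT SN, against 87.4, 97.1 and 219 CPM in WT VTA (0.17 ± 0.13 without WT VTA 3). Slc17a6 overlapped. Neurod6, Cck and Vip were highest in SN 2, the library with cortical markers, at 39.2, 171 and 26.9 CPM.

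Astrocyte genes leaned to SN, with 1 call. Gfap, the intermediate filament of astrocytes, on chromosome 11 (102887336 to 102897200), had 998, 718 and 681 CPM in WT SN, against 438, 292 and 305 CPM in WT VTA. The groups did not overlap, and the mean was 799 ± 173 CPM in WT SN and 345 ± 81.0 CPM in WT VTA (SD, n = 3 each). The log2 fold change was 1.21 ± 0.23 with 6 libraries (DESeq2 adjusted p = 0.00492) and 1.15 ± 0.25 without WT VTA 3 (0.00797). The Gfap call was lost without WT SN 1, WT SN 2 or WT VTA 2 in the 6-library set. Myoc, a secreted protein that some astrocytes make, had 164, 120 and 99.8 CPM in WT SN, against 60.3, 52.4 and 11.5 CPM in WT VTA, and was called by DESeq2 without WT VTA 3 (1.20 ± 0.24, adjusted p = 0.00321). Aqp4, the water channel of astrocyte endfeet, had 394, 378 and 466 CPM in WT SN, against 218, 290 and 169 CPM in WT VTA, and did not pass (0.87 ± 0.21, DESeq2 adjusted p = 0.302 with 6 libraries, and 0.087 without WT VTA 3).

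Of the 14 astrocyte genes, 11 had a higher mean in SN with 6 libraries (median 0.32) and 13 without WT VTA 3 (median 0.34). The whole list summed to 6900 to 7990 CPM in WT SN, against 5700 to 6872 CPM in WT VTA. The 14 microglial genes had medians of 0.07 with WT VTA 3 and 0.49 without it. Without it all 14 had a higher mean in SN and 8 did not overlap, where 9.45% of all genes tested lay higher without overlap, and none was called. With 6 libraries 8 of 14 had a higher mean, and VTA 3 had the highest summed microglial level, 1332 CPM, with 780 to 1094 CPM in WT SN and 730 and 565 CPM in WT VTA 1 and 2. Myelin genes had a median of 0.06 with 6 libraries and 0.13 without WT VTA 3.

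Several genes of motile cilia were called lower in SN by DESeq2: Ccdc153 and Tmem212, of the choroid plexus and ependymal list, and Ak7 and Cdhr4, which are not on it. Ccdc153, a gene of motile cilia, had 0.171, 0.289 and 0.328 CPM in WT SN (3, 5 and 6 counts), against 1.71, 2.77 and 11.9 CPM in WT VTA (30, 49 and 205 counts). It was called by DESeq2 with 6 libraries (DESeq2 adjusted p = 0.000252) and without WT VTA 3 (DESeq2 adjusted p = 0.0106). Its log2 fold changes were -4.37 ± 0.89 and -3.05 ± 0.43 from edgeR, and -4.41 ± 0.81 and -3.08 ± 0.70 from DESeq2. Tmem212 had 0, 0.0577 and 0.164 CPM in WT SN, against 1.37, 1.30 and 5.27 CPM in WT VTA, and Ak7, an adenylate kinase of cilia, had 0.40, 0.577 and 0.711 CPM in WT SN, against 2.17, 2.15 and 8.91 CPM in WT VTA. Both were called with 6 libraries (DESeq2 adjusted p = 0.00307 and 0.0267) and not without WT VTA 3 (0.0599 and 0.221), as was Cdhr4. WT VTA 3 was the highest library for these genes, yet VTA 1 and 2 were also above every SN library.

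All 12 choroid plexus and ependymal genes had a lower mean in SN without WT VTA 3, with a median of -1.27, and with 6 libraries all 11 tested did, with a median of -1.32. Ttr, the most abundant choroid plexus transcript, had 50.1, 7.73 and 20.6 CPM in WT SN, against 197, 164 and 17.7 CPM in WT VTA, and was not called. Foxj1, the master regulator of motile cilia, overlapped, with 17.9, 9.06 and 17.2 CPM in WT SN, against 19.4, 14.5 and 29.0 CPM in WT VTA. Summed, the list had 34.6 to 98.5 CPM in WT SN, against 265, 249 and 132 CPM in WT VTA.

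**Figure D4:**
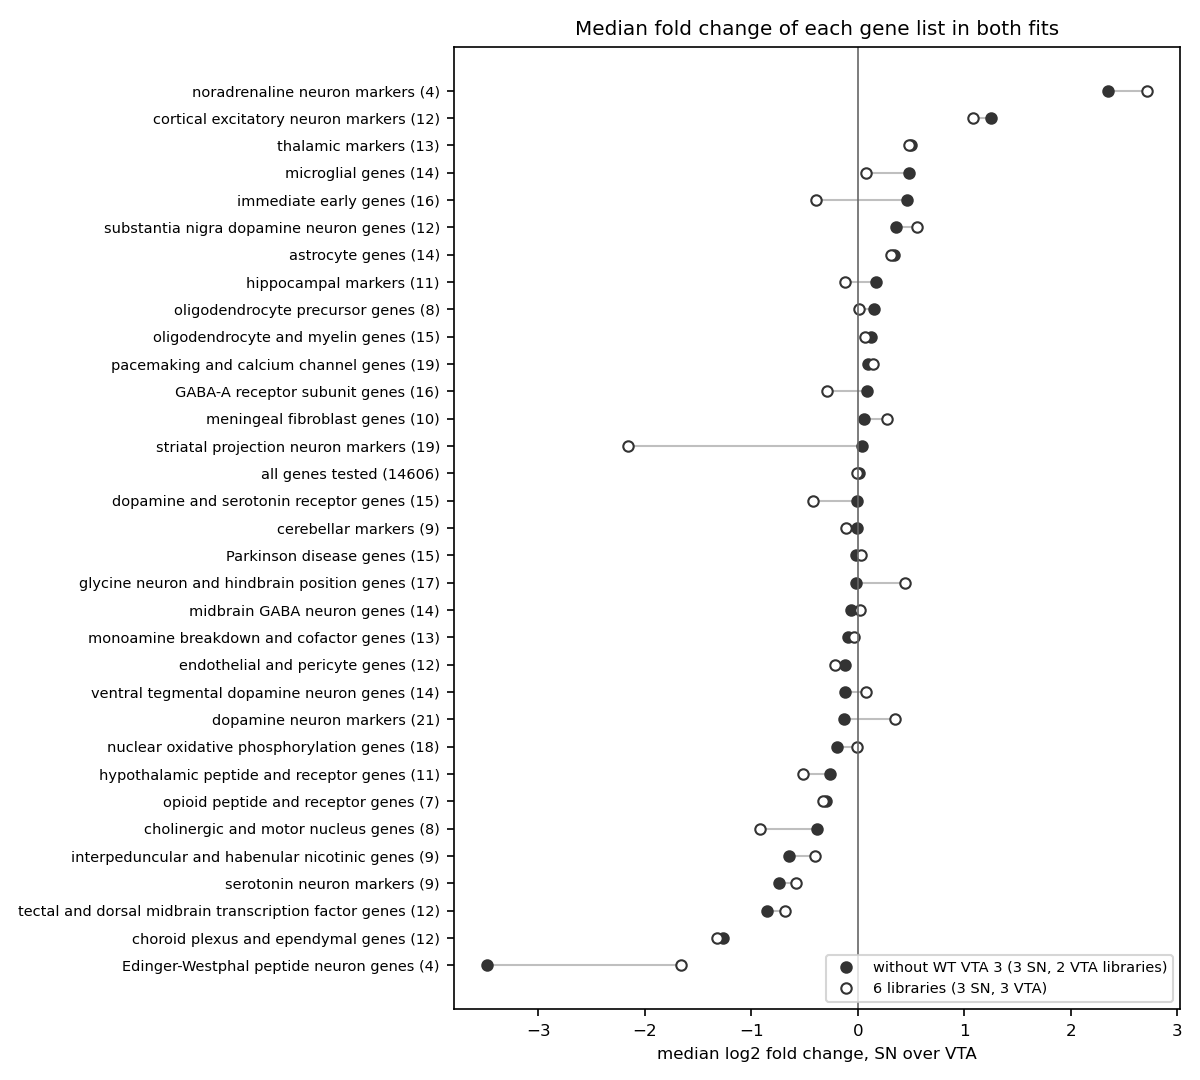
Median log2 fold change, SN over VTA (x axis), of 32 gene lists and of all genes tested (y axis, with the number of genes tested without WT VTA 3), with 6 libraries (open) and without WT VTA 3 (filled). The Edinger-Westphal and ependymal lists are lowest in both, apart from the striatal list, which is at -2.16 with WT VTA 3 and at 0.04 without it.

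Several genes called higher in SN had their highest SN value in SN 2, the library with cortical markers. Lamp5, a membrane protein of cortical neurons, had 74.2, 171 and 131 CPM in WT SN, against 41.3, 52.2 and 92.2 CPM in WT VTA, and was called by DESeq2 without WT VTA 3 (1.43 ± 0.33, adjusted p = 0.0106). All 12 cortical excitatory markers had a higher mean in SN in both sets (medians 1.08 and 1.25), with Lamp5 the only call, and the part of the cortical markers of SN 2 in this was not tested. Gabrd, the delta subunit of GABA-A receptors, had 16, 40.1 and 12.9 CPM in WT SN, against 5.43, 5.98 and 78.3 CPM in WT VTA. Its direction turned with WT VTA 3: the log2 fold change was -0.42 ± 1.05 with 6 libraries and 2.03 ± 0.51 without WT VTA 3, where DESeq2 called it (adjusted p = 0.0114). SN 2 was the highest SN library for Gabrd and Lamp5.

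Other calls in this direction were not led by SN 2. Tcf24, a basic helix-loop-helix factor, had 4.23, 2.71 and 4.60 CPM in WT SN (74, 47 and 84 counts), against 0.571, 0.169 and 0.695 CPM in WT VTA (10, 3 and 12 counts). DESeq2 called it in both sets, at 2.98 ± 0.50 with 6 libraries (adjusted p = 0.000252) and 3.37 ± 0.51 without WT VTA 3 (5.32e-05). All SN libraries lay above all VTA libraries. Ptpn3, a tyrosine phosphatase, had 37.4, 30.0 and 42.2 CPM in WT SN, against 20.9, 17.5 and 8.57 CPM in WT VTA (0.94 ± 0.18 without WT VTA 3). Padi2, the arginine deiminase of oligodendrocytes and astrocytes, had 100, 83.9 and 97.5 CPM in WT SN, against 61.5, 59.5 and 69.6 CPM in WT VTA (0.65 ± 0.14 without WT VTA 3, DESeq2 adjusted p = 0.0246). Endou, called in both sets, had 6.17, 3.06 and 2.30 CPM in WT SN, against 0.857, 0.339 and 0.868 CPM in WT VTA. Pcdhgc3, a clustered protocadherin whose transcripts share exons with other members of its cluster, was called without WT VTA 3 (0.65 ± 0.13) and turned with that library (-0.16 ± 0.46 with 6 libraries), at 127 to 141 CPM in WT SN, against 89.8, 81.4 and 266 CPM in WT VTA. Gm45935, a predicted gene at up to 1.15 CPM, was called higher without WT VTA 3 as well.

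The thalamic list leaned to SN in both sets, with 12 of 13 higher means with 6 libraries (median 0.48) and 9 of 13 without WT VTA 3 (median 0.50). Prkcd, a protein kinase of thalamic relay neurons, had 55.2, 14.4 and 73.3 CPM in WT SN, against 18, 13.6 and 22.0 CPM in WT VTA, with SN 2 at the VTA level. When WT SN 2 was left out together with WT VTA 3, edgeR called Prkcd (2.03, adjusted p = 0.0331) and C1ql2 (-2.36, adjusted p = 0.0331) beside Cartpt and Ucn.

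Lists of general neuronal function lay close to the median of all genes. Midbrain GABA neuron genes had medians of 0.02 and -0.06, with and without WT VTA 3, pacemaking and calcium channel genes 0.15 and 0.10, and Parkinson disease genes 0.03 and -0.02, with 0 calls in each. Nuclear oxidative phosphorylation genes had a median of -0.01 with 6 libraries and -0.20 without WT VTA 3, where 17 of 18 had a lower mean in SN and 9 lay lower without overlap, beside 48.4% and 14.5% of all genes tested. None of them was called. Maoa itself had 77.8, 66.4 and 84.6 CPM in WT SN, against 77.1, 80.7 and 53.6 CPM in WT VTA, with log2 fold changes of 0.11 ± 0.18 and -0.04 ± 0.14.

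The libraries labelled SN and VTA from KI mice were not used in these tests and give the same genes in other samples. Slc6a3 had 1.19, 0.776 and 421 CPM in KI SN 1, 2 and 3 and 376, 509 and 430 CPM in KI VTA 1, 2 and 3, so that KI SN 1 and 2 lacked the dopamine markers of their label. Cartpt had 22.7, 41.7 and 16.6 CPM in KI SN, against 5.51, 319 and 151 CPM in KI VTA. Ucn had 0, 0 and 0.32 CPM in KI SN, against 0.13, 21.2 and 9.71 CPM in KI VTA. Both peptide genes were thus high in KI VTA 2 and 3 and low in KI VTA 1, although KI VTA 1 had dopamine markers. KI VTA 3 lay between KI VTA 1 and 2 for both genes and for Slc6a3. The same held for Car8, of the cerebellar list (20.5, 230 and 111 CPM in KI VTA 1, 2 and 3), and Slc6a5 (80.4, 7.21 and 47.5 CPM). It did not hold for Slc6a2 (1.10, 1.03 and 1.32 CPM). Whether KI VTA 3 is independent of KI VTA 1 and 2 was not tested.

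Tph2 had 1.72, 0.597 and 5.19 CPM in KI SN, against 128, 15.9 and 71.7 CPM in KI VTA. Every KI VTA library was above every KI SN library, but KI SN 1 and 2 lacked the dopamine markers of their label. Their Tph2 values were near the 0.592 to 1.35 CPM of the WT libraries labelled HP and PFc. They therefore cannot show a difference of SN from VTA, which leaves KI SN 3, at 5.19 CPM. Gfap had 422, 96.5 and 1118 CPM in KI SN, against 1045, 642 and 891 CPM in KI VTA. KI SN 3, the KI SN library with dopamine markers, was above all KI VTA libraries for Gfap, by less than the spread among those. Genotype by region was tested with edgeR over the 12 libraries, and 0 of 14822 genes were called (2931 at an unadjusted p under 0.05). That test counted KI VTA 3 as a separate replicate.

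**Figure D5:**
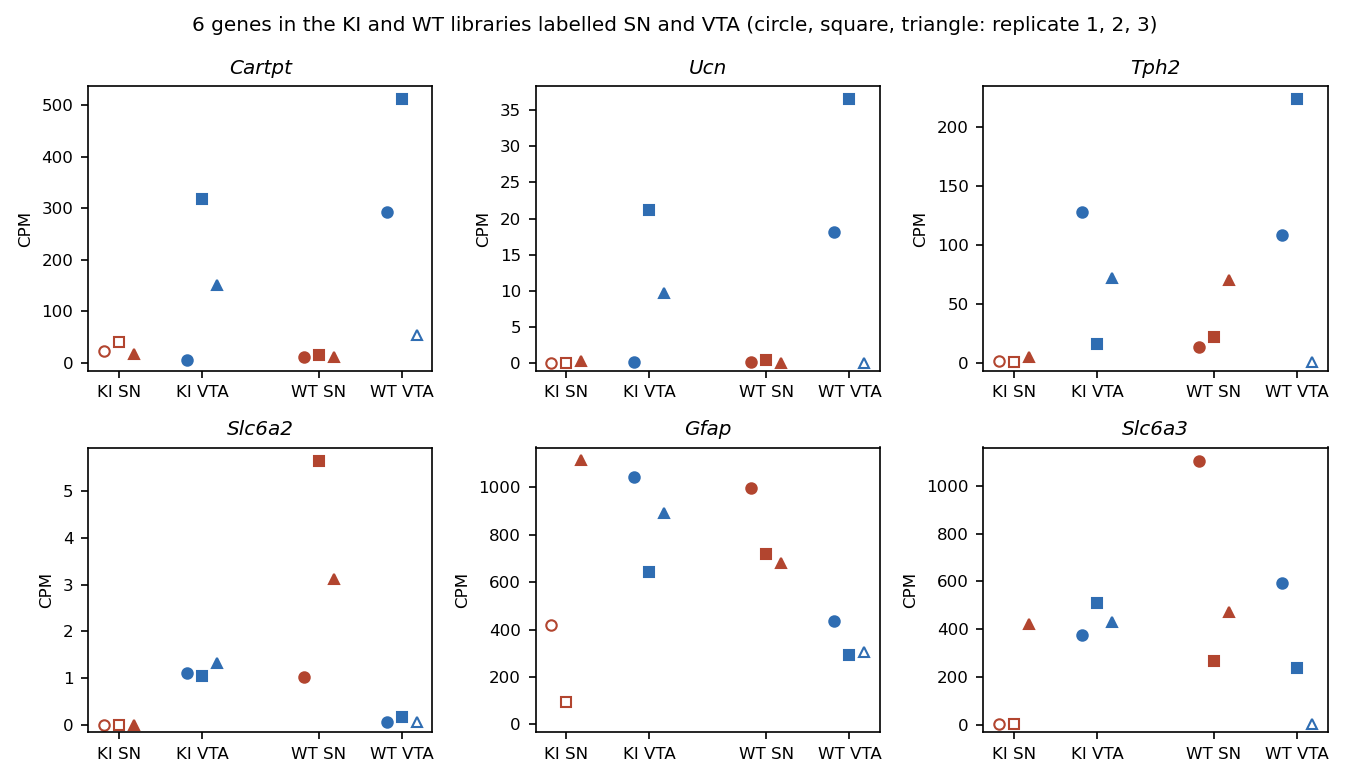
CPM (y axes, linear) of 6 genes in KI and WT libraries labelled SN (red) and VTA (blue); open symbols are WT VTA 3 and KI SN 1 and 2, which nearly lack Slc6a3 (0.579 to 1.19 CPM). Cartpt is high in WT VTA 1 and 2 and KI VTA 2 and 3 (151 to 512 CPM) and low in all SN libraries (11.0 to 41.7 CPM). In KI VTA 1 it is at 5.51 CPM, below all SN libraries, and in WT VTA 3 at 53.5 CPM.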

How the data were processed

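Per the labels' protocols, RNA-seq libraries came from a SMARTER mRNA-seq kit. GRCm38.p6 was the genome build, per the submitters' processing notes. How reads were aligned and counted, and whether strand was used, is not given in the sources used here. The authors deposited estimated counts per gene (9.88% of values not whole), which were rounded to whole numbers, and FPKM values, which were used only to set levels of different genes side by side. The log2 fold changes, p-values and q-values of the authors' deposited comparison of these 6 libraries come from DESeq2, per the file headers; their direction follows SN over VTA in the counts, and they correlate with those made here (r = 0.998 across 17907 genes, which are not independent replicates). A further 246 per-sample columns were not used. Of 19025 genes, 18969 identifiers matched RefSeq (GRCm38.p6), the source of coordinates.

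CPM is a count over the library total. The quasi-likelihood test of edgeR 4.0.16 (prior count 0.125) was run after filterByExpr and TMM normalisation, with Benjamini-Hochberg adjustment over all genes tested. Log2 fold changes and SEs are those of edgeR unless DESeq2 is named, and the edgeR SE is the log2 fold change over the square root of F. DESeq2 1.42.0 (Wald test) was the alternative test, in R 4.3.3; figures used Python 3.11.15 and matplotlib 3.10.9. Both tests were tried on simulated counts. There DESeq2 made more false calls than edgeR, with and without WT VTA 3, and recovered at least as many of the changed genes. The comparison, the gene lists and the named genes were chosen with earlier results of these data known. The rule for named genes took Maoa, the 3 dopamine lists, and in each set of libraries the 15 largest called and non-overlapping changes per direction (mean log2 CPM 1 or more), with up to 6 called members per further list. Since edgeR called under 5 genes per direction, DESeq2 calls were used. Uncalled members of the other lists, such as Tph2, Slc6a4, Slc6a5, Aqp4, Ttr, Pax7, Phox2a, Slc17a7 and Prkcd, were chosen after their values were seen, and so were Cdhr4, Epyc and Gm45935, which fall outside the rule. Replicate numbers were not treated as pairs. Some genes that the rule named are left out of the text. Among the 6 pairs of libraries of the same WT region, none looked like a library deposited again.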

Additional observations from a re-analysis of the deposited data

Results flagged for a closer look

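For 4 genes the WT and KI libraries moved in opposite directions without overlap: all libraries labelled SN lay on one side of those labelled VTA in WT, and on the other side in KI. The difference of the log2 fold changes (SN over VTA, WT minus KI) was tested with edgeR as genotype by region over 12 libraries, and none passed. It was 12.26 for Slc6a2 (adjusted p = 0.0603), 7.85 for Dbh (0.168), -4.31 for Fibcd1 (0.168) and -2.23 for Lypd1 (0.168). In WT, Lypd1 had 59.7 to 73.4 CPM in SN and 73.9 to 168 CPM in VTA; the WT values of the others are in the report. Slc6a2 had 0 counts in all 3 KI SN libraries, which allows up to 0.179 to 0.198 CPM, and 1.03 to 1.32 CPM in KI VTA, so its fitted difference depends on the prior count and is no bound. Dbh had 0.0641 to 0.198 CPM in KI SN and 0.849 to 1.07 CPM in KI VTA. Fibcd1 had 20.8 to 270 CPM in KI SN and 10.6 to 15.4 CPM in KI VTA, and Lypd1 had 82.4 to 274 CPM in KI SN and 54.5 to 64.7 CPM in KI VTA. KI SN 1 and 2 nearly lacked dopamine markers. The striatal markers summed to 735, 10213 and 1712 CPM in KI SN 1, 2 and 3, and to 6738 CPM in WT VTA 3. The cortical markers summed to 2505 CPM and the choroid plexus and ependymal genes to 3130 CPM in KI SN 1, which also had the 270 CPM of Fibcd1 and the 274 CPM of Lypd1, the highest KI SN values of both. The part of these libraries in the differences was not tested.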

How the results depend on the processing

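The count of called genes depended on the test and on WT VTA 3. With 6 libraries edgeR called 0 genes, DESeq2 called 11, and edgeR without WT VTA 3 called 2; leaving out each library in turn gave 0 to 2 with edgeR and 5 to 31 with DESeq2. Without WT VTA 3 edgeR called 2 genes and DESeq2 31; leaving out each SN library as well gave 0 to 4 with edgeR and 26 to 48 with DESeq2. The DESeq2 fits with a library left out were chosen after seeing the data. RLE size factors, library totals alone (6 libraries only), no filter on low counts, and a fit to all WT libraries (16 without WT VTA 3 and WT Nac 2, which carries midbrain markers) left the edgeR counts at 0 and 2. With the replicate number as a block edgeR called 0 genes with 6 libraries. Deviations of same-numbered SN and VTA libraries from their group means correlated at 0.21, -0.12 and -0.07. Those of differently numbered libraries correlated at -0.37 to 0.28. The VTA means include WT VTA 3, with its striatal markers, so these values cannot decide whether the numbers pair the libraries. Among single genes, no gene called in a fit or its alternative changed direction. An uncalled value changed sign in 61 of 900 comparisons with 6 libraries (34 of 75 genes), 9 of them under the replicate block, and in 34 of 545 without WT VTA 3 (28 of 78 genes); the cause was not tested. At 0 to 8 counts per library, values of Slc6a2, Dbh and Ucn in the lower group are near the counting limit.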
